A study of Rattus norvegicus with 6 samples.

Results

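The genes described here are 10 members of the Notch pathway, namely the receptors Notch1, Notch2, Notch3 and Notch4, the ligands Dll1, Dll4, Jag1 and Jag2, and the target genes Hey1 and Heyl. They were found by symbol among the 19828 entries of the deposited table, which held 1 row for each, and all 10 passed the filter on low values that left 15386 genes for testing. The samples were total lung from Sprague-Dawley rats, and both groups had received Sugen-Hypoxia, a VEGF receptor inhibitor combined with low oxygen that is used as a rat model of pulmonary arterial hypertension. There were 3 wild-type (WT) libraries and 3 Ahr-knockout (Ahr-KO) libraries, all from day 56. The product of Ahr is the aryl hydrocarbon receptor (AHR), a transcription factor switched on by small molecules, and the comparison asked how its loss was related to lung expression under this treatment. The sources used here do not give the kind or position of the Ahr edit or the sex and age of the rats, and an untreated group is not analysed here.

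Notch receptors are single-pass membrane proteins that are activated by ligands on a neighbouring cell. Ligand binding exposes the receptor to an ADAM protease and then to the gamma-secretase complex, which frees an intracellular part that joins the DNA-binding protein RBPJ and switches on HES and HEY repressor genes. In blood vessels, NOTCH1, NOTCH4 and the ligand DLL4 are best known from endothelial cells, and NOTCH3 and HEYL from smooth muscle cells and pericytes, the mural cells that surround the endothelium. NOTCH3 signalling in pulmonary arterial smooth muscle has been studied in pulmonary hypertension.

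Values are normalised read values per gene symbol, 1 per library, and each group's libraries carry the table's own numbers, 0, 1 and 2. They are not per unit of gene length, so levels of different genes are not compared. Log2 differences are Ahr-KO minus WT of log2(value + 1), given with the SE from limma-trend, and adjusted p-values are Benjamini-Hochberg values over all 15386 genes with a threshold of 0.05. Means are given with SD over n = 3 libraries. The values summed to 17.8 to 18.0 M (mega) in WT and 18.9 to 19.3 M in Ahr-KO libraries, and 1 read was worth 0.81 to 1.40, so even the lowest value of any member, 314, rests on a similar number of reads. The 5 AHR target genes taken as a check (Cyp1a1, Cyp1b1, Ahrr, Nqo1 and Tiparp) were all lower in Ahr-KO, with summed values of 32921 to 56497 in WT and 1855 to 1942 in Ahr-KO. Of 12 epithelial markers, 10 had a row and were read in the libraries, and all 10 endothelial markers had a row, as lung tissue should have. Separate animals are not named in the labels, and the p-values therefore reflect only how far these libraries spread, which may be technical.

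Among the 10 members, the ligand gene Dll1 and the target gene Heyl were lower in Ahr-KO lungs and no member passed the test as higher (limma-trend; Notch1 and Notch4 at an unadjusted p under 0.05, and 0 by limma-voom). Dll1 fell 1.85-fold and Heyl 1.99-fold. The other 8 members did not pass. Without both libraries numbered 2, the shallowest of each group, Dll1 (adjusted p = 0.095) and Heyl (0.13) did not pass either. Across all genes tested, 10.8% passed in either direction, 4.50% as higher and 6.26% as lower. The members' median log2 difference was 0.20, beside 0.01 over all genes tested, with 6 members above 0 and 4 below. The 3 values of one group lay wholly on one side of the other group for 4 members, Notch1 and Notch4 above and Dll1 and Heyl below, where this held for 34.3% of all genes tested (17.0% above and 17.4% below). Of all genes tested, 692 were higher and 963 lower, and after rescaling to equal library totals 449 were higher and 1314 lower (11.4% called), but Dll1 and Heyl were again the members past the threshold.

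**Figure D1:**
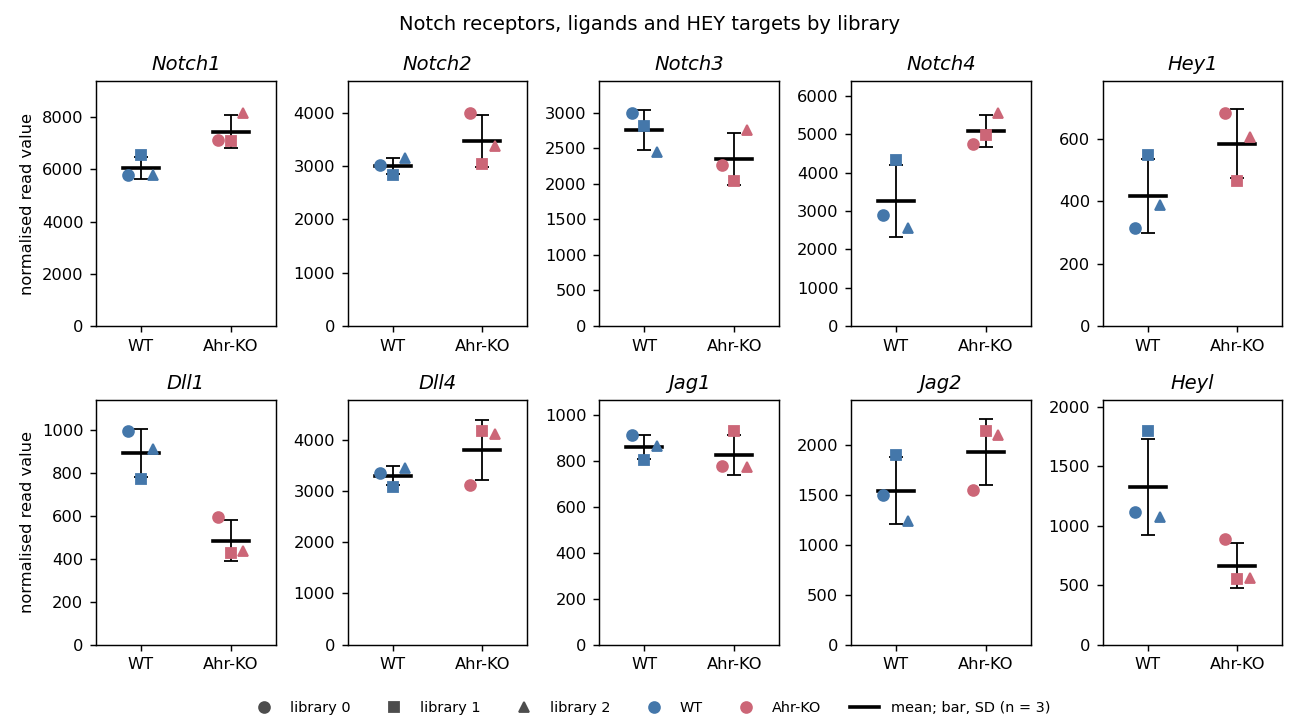
Normalised read value (vertical axes, linear and starting at 0) of each member in the 3 WT and 3 Ahr-KO libraries; points are libraries, thick lines group means and bars SD. Dll1 and Heyl lie lower in every Ahr-KO library than in any WT library, and Notch1 and Notch4 lie higher.

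**Figure D2:**
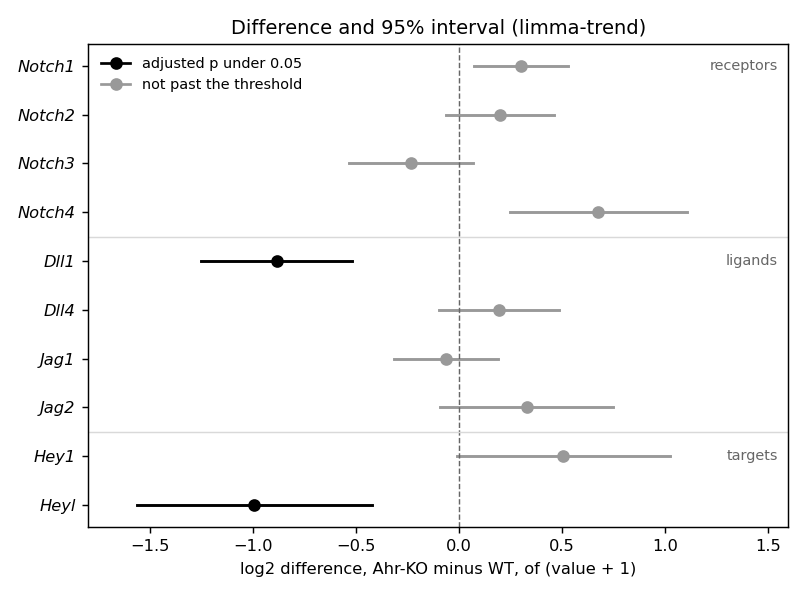
Log2 difference between Ahr-KO and WT (points) with its 95% interval (lines) for the 10 members, grouped by role. The intervals of Dll1 (-1.25 to -0.52) and Heyl (-1.56 to -0.42) belong to the members past the threshold, in black; the others are grey.

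The receptor genes did not move as a block. Notch4, whose product is made mainly by endothelial cells, had WT values of 2903, 4329 and 2549 (libraries 0, 1 and 2) and Ahr-KO values of 4738, 4981 and 5555 in the same order. All Ahr-KO values lay above all WT values, but WT library 1 stood well above the other two WT libraries and close to the lowest Ahr-KO value. The group means were 3260.2 ± 942 and 5091 ± 419, a log2 difference of 0.68 ± 0.19 with a 95% interval of 0.25 to 1.11, which did not pass (adjusted p = 0.056). Without WT library 1 the difference was 0.90 and passed (adjusted p = 0.016).

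Notch1, the receptor with the broadest known roles, among them in endothelial and T cell development, was read at 5802, 6544 and 5805 in WT and at 7117, 7073 and 8164 in Ahr-KO. The groups did not overlap, yet the step between them was small, at a log2 difference of 0.30 ± 0.10 (95% interval 0.07 to 0.53, adjusted p = 0.093). Notch2, which is known for its part in marginal zone B cells and in kidney and liver development, stood at 3029.9, 2837 and 3147 in WT and at 3999, 3036 and 3375 in Ahr-KO. Its groups overlapped and only Ahr-KO library 0 stood clearly apart (log2 0.20 ± 0.11, 95% interval -0.06 to 0.46, adjusted p = 0.30).

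Notch3, the mural cell receptor, was the only receptor gene whose difference was negative. Its values were 2999, 2814 and 2447 in WT and 2259.9, 2048 and 2756 in Ahr-KO, so that Ahr-KO library 2 lay within the WT range. The difference of -0.23 ± 0.13 did not pass (95% interval -0.53 to 0.07, adjusted p = 0.29).

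Of the ligand genes, Dll1 changed and Dll4, Jag1 and Jag2 did not pass. DLL1 is a Delta-type ligand known from somite formation, from the splenic niche of marginal zone B cells and from arterial endothelium. Dll1 was read at 992, 769.5 and 908 in WT and at 592, 426 and 435 in Ahr-KO. Every Ahr-KO value was below every WT value, and Ahr-KO library 0 was the nearest to WT. The means were 889.7 ± 112 and 484 ± 93.2, a log2 difference of -0.89 ± 0.16 (95% interval -1.25 to -0.52, adjusted p = 0.016). The call was lost when WT library 0 (adjusted p = 0.052) or either of Ahr-KO libraries 1 (0.059) and 2 (0.071) was left out, and the difference stayed between -1.04 and -0.80 in the 6 fits that left out 1 library.

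Dll4, the Delta-type ligand of arterial and sprouting endothelium, was read at 3362, 3089.5 and 3449.6 in WT and at 3123, 4165 and 4118 in Ahr-KO. Ahr-KO library 0 lay within the WT range and the other two Ahr-KO libraries above it (log2 0.19 ± 0.13, 95% interval -0.10 to 0.48, adjusted p = 0.36). Jag1, a Serrate-type ligand made by endothelial and smooth muscle cells, was nearly level, at 915, 807 and 864 in WT against 779, 929.7 and 776 in Ahr-KO. Its 95% interval of -0.31 to 0.19 bounded the difference more closely than those of the other ligand genes (log2 -0.06 ± 0.11, adjusted p = 0.76). Jag2, the second Serrate-type ligand, stood at 1491, 1894 and 1235 in WT and at 1544, 2131 and 2101 in Ahr-KO. The groups overlapped, since WT library 1 was above Ahr-KO library 0 (log2 0.33 ± 0.18, 95% interval -0.09 to 0.75, adjusted p = 0.29).

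The 2 HEY genes had differences of opposite sign. HEYL and HEY1 are related basic helix-loop-helix repressors that Notch signalling induces, HEYL in mural cells and HEY1 in endothelial and smooth muscle cells. Heyl was read at 1113, 1794 and 1076 in WT and at 885, 551 and 557 in Ahr-KO. The groups did not overlap, WT library 1 was far above the other WT libraries, and Ahr-KO library 0 was again the nearest to WT. The means were 1328 ± 405 and 664 ± 191, a log2 difference of -0.99 ± 0.25 (95% interval -1.56 to -0.42, adjusted p = 0.042). This call was close to the threshold and was lost when WT library 0 (adjusted p = 0.069), WT library 1 (0.090) or either of Ahr-KO libraries 1 (0.13) and 2 (0.15) was left out. It was also lost in limma without the trend (0.099).

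Hey1 stood at 314, 548 and 387 in WT and at 682, 464 and 606 in Ahr-KO. WT library 1 lay above Ahr-KO library 1, so the groups overlapped, and the log2 difference of 0.51 ± 0.22 did not pass (95% interval -0.01 to 1.02, adjusted p = 0.19).

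The start regions of Dll1 and Heyl, the members that fell, and of Notch4, the member with the highest positive difference, are shown with the letters TGGGAA, the core to which RBPJ binds, and GCGTG, the core to which AHR and ARNT bind. RefSeq's rat build GRCr8 supplied windows from 250 bases before to 50 bases after the start for 8 of the 10 members, and Dll4 and Hey1 had no entry. Capitals mark matches to either motif on either strand (TTCCCA and CACGC are the reverse complements), and each line reads 5′ to 3′ along the gene's strand.
Dll1 (chr1:64993225-64993524, minus strand): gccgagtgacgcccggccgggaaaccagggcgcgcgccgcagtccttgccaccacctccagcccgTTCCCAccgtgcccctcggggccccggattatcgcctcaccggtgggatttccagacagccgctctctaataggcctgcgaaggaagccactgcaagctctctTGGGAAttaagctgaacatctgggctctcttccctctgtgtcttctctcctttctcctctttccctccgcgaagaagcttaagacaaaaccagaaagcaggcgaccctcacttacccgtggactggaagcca
Heyl (chr5:140793021-140793320, plus strand): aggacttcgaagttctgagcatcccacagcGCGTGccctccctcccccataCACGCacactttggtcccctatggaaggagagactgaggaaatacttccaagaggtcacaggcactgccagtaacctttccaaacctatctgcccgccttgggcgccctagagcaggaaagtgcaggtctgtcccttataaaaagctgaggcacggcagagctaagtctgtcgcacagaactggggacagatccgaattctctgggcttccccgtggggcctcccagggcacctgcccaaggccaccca
Notch4 (chr20:4189023-4189322, minus strand): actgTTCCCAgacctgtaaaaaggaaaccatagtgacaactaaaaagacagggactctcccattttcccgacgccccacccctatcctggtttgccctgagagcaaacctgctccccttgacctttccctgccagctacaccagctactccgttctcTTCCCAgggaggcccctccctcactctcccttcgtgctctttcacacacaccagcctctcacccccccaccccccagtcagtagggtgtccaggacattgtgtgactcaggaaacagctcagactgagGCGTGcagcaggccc
The Dll1 window held TGGGAA at 2 places, starting 185 and 82 bases before the start, and no GCGTG. The Heyl window held GCGTG at 2 places, starting 220 and 199 bases before the start, and no TGGGAA. The Notch4 window held 2 matches to TGGGAA (246 and 93 bases before the start) and 1 to GCGTG, whose first letter is base 36 counted from 1 at the start. Of the 8 members with a window, 3 held TGGGAA (Dll1, Notch3 and Notch4) and 7 held GCGTG, all but Dll1. Jag2 had 2 windows, and GCGTG was in 1 of them. Among all 33469 windows of 300 bases in the RefSeq table, 25.7% held TGGGAA and 29.7% held GCGTG. The members' windows were 57.3% to 84.7% G or C. The shares over all windows were not matched for this, so no excess of either motif is read from them. These letters describe the windows only and no binding was measured.

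Ratios between members within a library do not depend on how libraries were scaled, and gene length cancels when the groups are compared. All 13 pairs of members with the same role were examined. The groups did not overlap for 8 of the 13 pairs, beside 34.0% of all pairs of tested genes. The pairs share members and are not independent, and every pair with Dll1 was among the 8. The members had been chosen with results known, and an exact permutation test of 3 against 3 libraries cannot give a two-sided p below 0.1, so no pair could pass (Benjamini-Hochberg adjusted p = 0.16 at the lowest over 13 pairs).

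The pair with the greatest shift was Hey1 to Heyl. Its log2 ratio was -1.82, -1.71 and -1.47 in WT and -0.38, -0.25 and 0.12 in Ahr-KO, a shift of 1.5 (two-sided exact permutation p = 0.1). WT library 1, the highest WT library for both genes, did not stand apart in this ratio. Dll1 to Dll4 moved from -1.76, -2.0 and -1.92 in WT to -2.40, -3.29 and -3.24 in Ahr-KO, a shift of -1.08 (exact permutation p = 0.1). The ratio of Dll1 was lower in every Ahr-KO library also against Jag1 (shift -0.82) and Jag2 (shift -1.21).

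Among receptors, Notch3 to Notch4 stood at 0.05, -0.62 and -0.06 in WT and at -1.07, -1.28 and -1.01 in Ahr-KO, a shift of -0.91 (exact permutation p = 0.1). The groups of this ratio were separate. So were those of Notch4 alone, while those of Notch3 overlapped, and neither gene passed the test across genes. Notch1 to Notch2 showed no such separation (shift 0.10, exact permutation p = 0.7), and neither did Dll4 to Jag2 (shift -0.14, p = 0.7 by the same exact test).

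**Figure D3:**
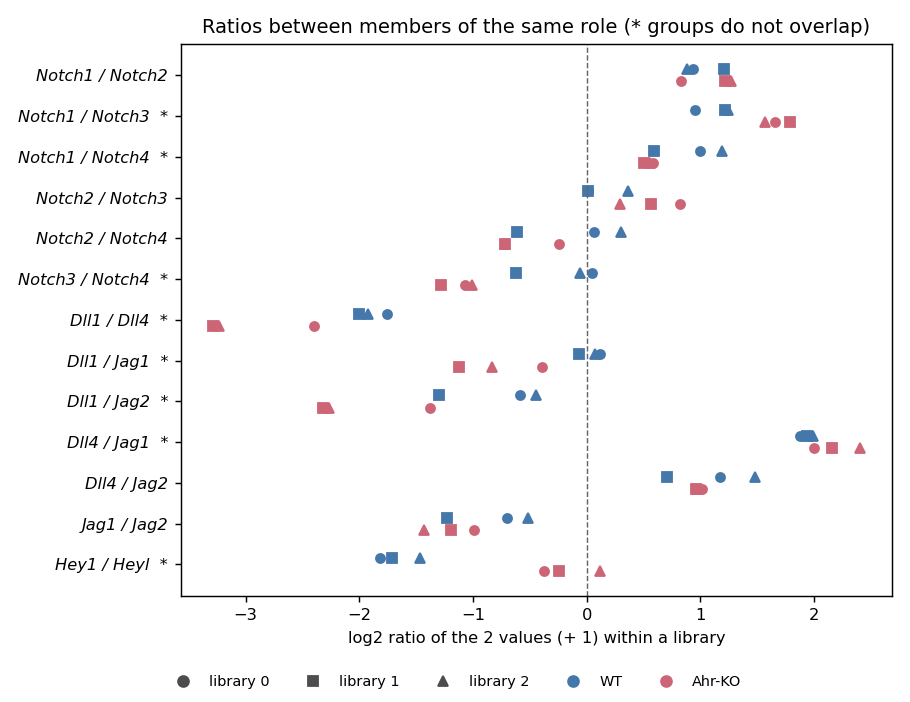
Log2 ratio of 2 members of the same role within each library (horizontal axis), with WT in blue and Ahr-KO in red; an asterisk marks the 8 of 13 pairs whose groups do not overlap. The Hey1 to Heyl ratios lie between -1.82 and -1.47 in WT and between -0.38 and 0.12 in Ahr-KO.

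Other genes of the Notch pathway were taken from 8 lists of 53 genes, of which 50 were tested (Dll3, Hes3 and Hes5 were below the filter). In these lists 2 genes passed as higher, 3 as lower and 45 did not pass, so that 10% were called, close to the 10.8% of all genes tested. Their median log2 difference was 0.08. The genes past the threshold sat at different steps of the pathway, and no list had more than 2.

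Neurl1b, an E3 ubiquitin ligase of the Neuralized family that acts on Notch ligands, had the lowest adjusted p of the 50. It stood at 175, 229.9 and 127 in WT and at 45.1, 32.2 and 35.5 in Ahr-KO, with every Ahr-KO value far below WT. The log2 difference was -2.18 ± 0.26, a 4.53-fold fall (adjusted p = 0.0054), and it passed in each of the 6 fits that left out 1 library. Its relative Neurl1, named after its value was seen, stood at 18.0, 24.6 and 19.6 in WT and at 9.67, 6.61 and 2.73 in Ahr-KO and did not pass (log2 -1.68 ± 0.45, adjusted p = 0.052). In limma-voom it passed, which made 4 pathway genes lower by that method.

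Lfng encodes Lunatic fringe, a glycosyltransferase that modifies Notch receptors and shifts their response between Delta-type and Serrate-type ligands. It fell from 1609, 1883 and 1687 in WT to 1247, 1258 and 1263 in Ahr-KO, a log2 difference of -0.46 ± 0.09 (adjusted p = 0.020). The 3 Ahr-KO values were almost equal, and the other 4 genes of the glycosylation list did not pass. The call was lost when WT library 1 (adjusted p = 0.067) or either of Ahr-KO libraries 1 (0.075) and 2 (0.074) was left out, and in limma without the trend (0.058).

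Among regulators of receptor turnover, 1 of 10 rose and 1 fell. Numb, an endocytic adaptor that antagonises Notch, rose from 944, 1102 and 1094 in WT to 1552, 1465 and 1649 in Ahr-KO (log2 0.57 ± 0.10, adjusted p = 0.014). Its groups lay well apart, and the call was lost only without Ahr-KO library 2 among the fits that left out 1 library (adjusted p = 0.066). Dtx1, a Deltex ubiquitin ligase that binds Notch receptors and is expressed in lymphocytes, fell from 213, 176 and 165 to 99.1, 84.3 and 50.5 (log2 -1.28 ± 0.27, adjusted p = 0.025). The Dtx1 call lasted only in the fits that left out WT library 2 or Ahr-KO library 0 (adjusted p up to 0.078 in the other 4), and it ended in limma without the trend (0.053). Without both libraries numbered 2, Lfng (adjusted p = 0.069), Numb (0.057) and Dtx1 (0.056) did not pass, while Neurl1b (0.029) and Dlk1 (0.019) did.

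Dlk1, a non-canonical Delta-like ligand that is also secreted, rose from 153, 159 and 622 in WT to 1213, 932 and 729.8 in Ahr-KO. WT library 2 was close to the lowest Ahr-KO value. The log2 difference of 1.92 ± 0.50 was just past the threshold (adjusted p = 0.049) and grew to 2.58 without WT library 2 (adjusted p = 0.0023). Leaving out any other library ended the call (highest adjusted p = 0.13), as did quantile normalisation (0.059), equal library totals (0.055), robust limma (0.065), no filter (0.058), limma without the trend (0.11) and a pseudocount of 0.1 (0.053).

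In 4 lists no gene passed in limma-trend or limma-voom. Of 9 genes for receptor cleavage, 1 had an unadjusted p under 0.05, and the lowest p was that of Adam17, a protease that can cut Notch receptors (4399, 4657 and 3983 in WT and 3582, 3612 and 3536 in Ahr-KO, log2 -0.28 ± 0.09, adjusted p = 0.082). Of 7 genes of the nuclear complex, 2 of them at an unadjusted p under 0.05, it was that of the acetyltransferase gene Kat2b (log2 0.36 ± 0.10, adjusted p = 0.057). Of 6 corepressor genes, also 2 of them at that level, it was that of Tle1, whose product HES proteins recruit (log2 0.53 ± 0.14, adjusted p = 0.053). Adam17 passed as lower after quantile normalisation (adjusted p = 0.041) and with equal library totals (0.036).

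The further targets were 8 genes, made up of HES genes, Hey2 and Nrarp, of which 6 were tested and none passed (1 at an unadjusted p under 0.05). That gene was Nrarp, a target that feeds back on the Notch nuclear complex, at 1416, 1065 and 1146 in WT and 587, 876 and 859 in Ahr-KO. Its groups did not overlap (log2 -0.66 ± 0.18, 95% interval -1.07 to -0.24, adjusted p = 0.056), and it passed with equal library totals (adjusted p = 0.036, where the other alternatives gave up to 0.15). Hes1, the best known Notch target, and Hey2, the third HEY gene, are named after their values were seen. Hes1 was read at 975, 894 and 888 in WT and at 741, 929.7 and 794 in Ahr-KO, with overlapping groups (log2 -0.17 ± 0.11, 95% interval -0.43 to 0.09, adjusted p = 0.37). Hey2 stood at 157, 161 and 193 in WT and 142, 256 and 162 in Ahr-KO (log2 0.09 ± 0.24, 95% interval -0.45 to 0.64, adjusted p = 0.84).

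**Figure D4:**
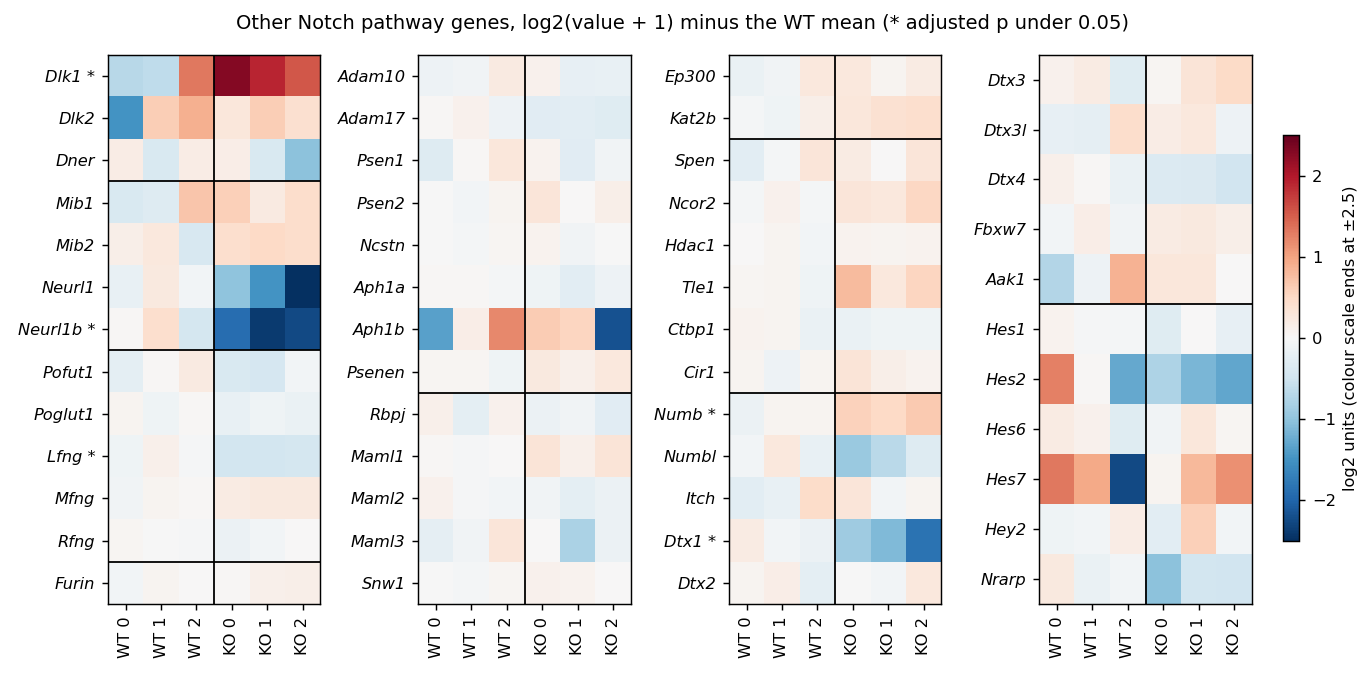
Log2(value + 1) minus the WT mean for the 50 tested genes of the 8 other Notch pathway lists (rows; black lines separate lists) in each library (columns, KO for Ahr-KO), with red higher and blue lower. The 5 genes past the threshold carry an asterisk, Dlk1 and Numb higher and Neurl1b, Lfng and Dtx1 lower.

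Of 10 genes of arterial endothelium, several of which Notch signalling is known to induce, 1 fell and 9 did not pass. It was Gja5, the gap junction gene of arterial endothelium (connexin 40), at 2884, 3435 and 2379 in WT and 1364, 1492 and 1514 in Ahr-KO. The groups were well apart (log2 -0.98 ± 0.14, a 1.97-fold fall, adjusted p = 0.0077), and the call was kept whichever library was left out. The median log2 difference of the list was -0.04.

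Markers of several cell types moved between the groups as well, and in bulk tissue fewer cells of a type cannot be told apart from less RNA per cell. Summed over 10 endothelial markers, the values ran from 53486 to 57809 in WT and from 69208 to 72888 in Ahr-KO, beside the higher Notch1 and Notch4 values. The summed arterial list moved the other way, from 38326 to 43867 in WT and from 31424 to 36143 in Ahr-KO. Most of that sum was 1 gene, Acvrl1, named after its value was seen. Its mean was 23108 in WT and 17785 in Ahr-KO, and it did not pass (limma-trend adjusted p = 0.089). Of the 10 arterial genes, 5 had positive and 5 negative log2 differences, so the sum does not show a fall of the list as a whole. Of the 10 endothelial markers, Pecam1 and Tek, of endothelial junctions and angiopoietin signalling, rose (limma-trend adjusted p = 0.044 and 0.016). Emcn, named after its value was seen, fell (0.042). The other 7 did not pass, among them Kdr, whose groups overlapped (0.39). Summed mural cell markers overlapped, at 41413 to 47178 in WT and 40959.7 to 59746 in Ahr-KO. In this list 0 of 10 rose (3 at an unadjusted p under 0.05) and 2 fell, namely the adhesion molecule gene Mcam (log2 -0.77 ± 0.11, adjusted p = 0.0093) and Rgs5, a pericyte marker named after its value was seen (log2 -1.27 ± 0.23, adjusted p = 0.016). The contractile gene Myh11 had a positive difference that did not pass (log2 0.66 ± 0.21, adjusted p = 0.085), beside the fall of Heyl.

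Leukocyte markers were lower beside Dll1, Heyl and Dtx1. Of 10 such markers 8 fell and none rose, and their sum was 10519, 9295 and 11499 in WT and 6932, 4178 and 4197 in Ahr-KO. Within the Ahr-KO group library 0 had the highest sum, as it had the highest Dll1 and Heyl values, where 34.2% of all genes tested were highest in that library of the group. In WT, library 1 had the lowest leukocyte sum and the lowest Dll1 value (769.5) but the highest Heyl value (1794). The highest WT leukocyte sum was in library 2 and the highest WT Dll1 value in library 0. That sum was highest in library 2 through Ptprc, the leukocyte marker with the highest mean, at 4406, 3966 and 5780 in WT. Of the other leukocyte markers, more were highest in WT library 0 than in WT library 2. Summed fibroblast markers, of which 1 of 6 fell, followed the order of the leukocyte sums in Ahr-KO, at 13734, 9580.1 and 9987. In WT they were 20702, 17906 and 15800.2, where library 2 had the lowest fibroblast sum and the highest leukocyte sum. Col1a1, the fibroblast marker that fell, was a large part of these sums, at 10512, 10281 and 7727 in WT and 4073, 3474 and 3371 in Ahr-KO. The contrast in WT library 2 therefore rests on Col1a1 and Ptprc and not on the lists as a whole. Summed epithelial markers, mostly the secretory genes Sftpc and Scgb1a1, were 584466 to 607438 in WT and 707791 to 793876 in Ahr-KO, with 2 of 10 tested genes higher and 1 lower. Summed striated muscle markers, of which 0 of 6 passed, varied widely within groups. They ran from 310 to 3892 in WT, highest in library 2, and from 437 to 1691 in Ahr-KO. No gene of these marker lists that had a row was at 0 in all 6 libraries. The part of these cell types in the differences of Dll1, Heyl, Notch4 and the other pathway genes was not tested.

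**Figure D5:**
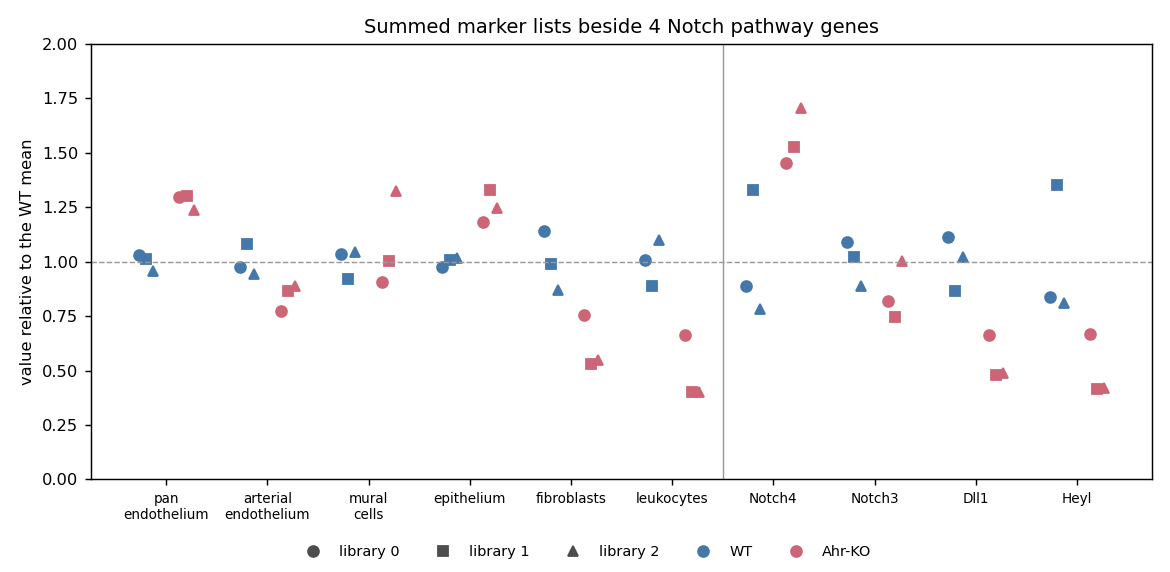
Summed values of 6 marker lists and the values of Notch4, Notch3, Dll1 and Heyl in each library, divided by the WT mean (vertical axis, linear from 0; dashed line, WT mean). The leukocyte sums of Ahr-KO, 4178 to 6932, lie below those of WT, 9295 to 11499, and Ahr-KO library 0 is the nearest to WT for leukocytes, Dll1 and Heyl.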

How the data were processed

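Bulk RNA-seq of total lung gave 6 libraries, 3 WT and 3 Ahr-KO. The authors deposited 1 table of normalised signal per gene symbol, and in each library 97.4% to 97.9% of nonzero values were whole multiples of a single step (tolerance 0.05), so they behave as read counts divided by a factor per library. The rest were fractions, so no count test was used and limma replaced the test designed for counts. On this step, library depth came to 12.9 to 23.6 M reads. Build rn6 and the read quality tool FastQC are named, per the submitters' processing notes. For the aligner, counter, annotation and strandedness, a name is not given in the sources used here. There were 0 columns left unused. Column names gave the group but not the single sample, so the library numbers serve only as names. No 2 libraries of a group agreed within sampling noise (lowest chi-square per gene 15.9).

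Values were transformed to log2(value + 1), a gene was kept if 3 or more libraries had a value of 1 or above, and limma 3.58.1 (R 4.3.3) was fitted with a mean-variance trend and genotype as the single term. Tested on simulated data with 200 of 15248 genes changed between Ahr-KO and WT, the fit recovered 94.4% of 2-fold and 100% of 4-fold changes. The simulation gave every gene the same fixed dispersion, held no outlying library and changed only genes well above the filter. These shares therefore do not give the chance of finding such changes in the real libraries. The members and gene lists were chosen with earlier results of these data known. Named genes were the 10 members, every gene past the threshold in the pathway and arterial lists or else the gene with the lowest p, and at most 3 genes with the highest mean per cell type list. Alternatives were 2 other scalings, 2 variance models, 2 filters, pseudocounts of 0.1 and 5, limma-voom on estimated reads, a block, a threshold of 0.10 and each library left out in turn; the fit without both libraries numbered 2, the shallowest, was chosen after seeing the data.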

Additional observations from a re-analysis of the deposited data

How the results depend on the processing

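No difference of a member changed sign under any alternative run. The calls of Dll1 and Heyl held under quantile normalisation, equal library totals, robust limma, both filters, both pseudocounts and limma-voom. Limma without the trend ended the call of Heyl (log2 -0.99, adjusted p = 0.099) and left 1 member lower and 952 genes called. Same-numbered libraries showed little shared deviation (correlations of deviations -0.10, 0.07 and -0.07). With 3 libraries per group this check cannot exclude a weak pairing or one limited to few genes, and the labels state none. With the library number as a block, 899 genes passed, Heyl was not called (log2 -0.99, adjusted p = 0.077) and 1 member was lower; Dlk1 (adjusted p = 0.085) and Lfng (0.058) were not called either. Without both libraries numbered 2, 553 genes and 0 members passed by limma (3814 genes at an unadjusted p under 0.05), with Dll1 at -0.80 and Heyl at -1.02. At an adjusted p under 0.10, 2853 genes passed and 2 members, Notch1 and Notch4, counted as higher.

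Leaving out 1 library gave 407 to 1834 genes past the threshold, 0 to 1 members higher and 0 to 2 lower. The log2 difference then ran from -1.04 to -0.80 for Dll1, from -1.22 to -0.76 for Heyl and from 0.52 to 0.90 for Notch4. Members called lower were 0 without WT library 0 and without either of Ahr-KO libraries 1 and 2. The cause was not tested.

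Of the other pathway genes, 1 was higher (not 2) under quantile normalisation, equal totals, no trend, robust limma, no filter, a pseudocount of 0.1, the block and without both libraries numbered 2, and 5 were at the looser threshold. Lower were 7 with equal totals, 1 without the trend, 8 at the looser threshold and 1 without both libraries numbered 2, against 3. With 1 library left out, 0 to 4 were higher and 1 to 5 lower.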
